A study of Rattus norvegicus with 14 samples.

Results

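The transcripts described here are those of 9 rat genes of glycolysis and gluconeogenesis: Slc2a2, Hk1, Hk2, Aldoa, Pkm, Pklr, Ldha, Fbp1 and Pck1. They were taken by name, each through the probe set that carried its symbol alone in the platform annotation and had the highest mean over the animals, and all 9 were found among the 14497 genes measured. Rat liver tissue was fixed in formalin, embedded in paraffin and laser-captured, and RNA was read on Affymetrix Rat Gene ST 1.0 arrays, which probe a transcript along its whole length. The 12 male F344 rats formed 4 groups of 3 animals. Rapamycin foci and placebo foci were lesions positive for GSTP, a glutathione transferase that marks preneoplastic hepatocytes, raised by the Solt-Farber protocol for liver carcinogenesis. Both groups received diethylnitrosamine at 200 mg/kg on day 1, a 2.5 mg pellet of 2-acetylaminofluorene (AAF) with a release time of 14 days on day 14, and partial hepatectomy on day 21. With the hepatectomy went a pellet with a release time of 21 days, which held rapamycin at 2.5 mg/kg per day in one group and placebo in the other. The captured regions were persistent lesions on day 70, after the release time of the drug pellet had ended. AAF/PH liver was captured on day 14 from rats that had the AAF pellet on day 1 and lost part of the liver by hepatectomy on day 7. This schedule makes the liver's progenitors, the oval cells, proliferate. Normal liver came from unmanipulated adults. AAF and partial hepatectomy were thus shared by all groups except normal liver. Ages were not given in the labels.

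Glycolysis breaks glucose down to pyruvate and gluconeogenesis rebuilds glucose from it, and the adult hepatocyte can run either way. It does so with enzyme forms of its own, such as the liver pyruvate kinase encoded by Pklr and the glucose transporter GLUT2 encoded by Slc2a2. Fetal liver, non-parenchymal cells and many liver tumours use other forms, among them hexokinases 1 and 2 and the M forms of pyruvate kinase encoded by Pkm. Fbp1 (fructose-1,6-bisphosphatase) and Pck1 (cytosolic phosphoenolpyruvate carboxykinase) catalyse steps that only gluconeogenesis uses. Rapamycin inhibits the kinase complex mTORC1, which is known to raise glycolytic transcripts through HIF1 and MYC.

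The promoters of 3 members are shown because they hold textbook response elements for the signals that govern these genes: a glucose response element bound by ChREBP, the product of Mlxipl, in Pklr, and cyclic AMP response elements in Pck1 and Ldha. The sequences are the 250 bases before the start site in RefSeq's annotation of the rat assembly GRCr8, 5′ to 3′ on the plus strand, at chr2:176841014-176841263 for Pklr, chr3:182348322-182348571 for Pck1 and chr1:106507842-106508091 for Ldha. Capitals mark the matches to the motifs searched.
Pklr promoter: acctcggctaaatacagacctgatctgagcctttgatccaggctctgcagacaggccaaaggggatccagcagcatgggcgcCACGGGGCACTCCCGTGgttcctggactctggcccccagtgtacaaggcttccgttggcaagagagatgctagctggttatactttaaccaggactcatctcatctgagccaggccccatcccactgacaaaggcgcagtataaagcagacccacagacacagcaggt
Pck1 promoter: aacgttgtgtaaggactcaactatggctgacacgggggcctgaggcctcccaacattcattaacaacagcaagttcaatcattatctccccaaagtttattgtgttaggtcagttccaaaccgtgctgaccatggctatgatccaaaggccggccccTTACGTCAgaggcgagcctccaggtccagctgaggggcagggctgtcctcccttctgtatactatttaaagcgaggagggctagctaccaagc
Ldha promoter: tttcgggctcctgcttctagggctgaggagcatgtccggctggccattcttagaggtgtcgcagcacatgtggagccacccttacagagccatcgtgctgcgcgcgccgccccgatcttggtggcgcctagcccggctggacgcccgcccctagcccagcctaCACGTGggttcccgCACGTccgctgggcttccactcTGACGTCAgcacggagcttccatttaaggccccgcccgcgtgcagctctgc
All 9 members had at least 1 promoter in that table, 12 in all. The motifs were searched on both strands. The glucose response element, a palindrome of E-box-like parts with a spacer of any bases, stood in Pklr alone among the members, 168 bases before its start, and in 0.0209% of the 33469 promoters of the table. The cyclic AMP response element, searched as TNACGTCA, stood 93 bases before the start of Pck1 and 51 bases before that of Ldha, and in 2.88% of all promoters. The HIF core ACGTG was found in Ldha, where 2 of its 3 matches overlap each other, in 1 of 3 promoters of Aldoa and in 1 of 2 promoters of Hk1, against 16.6% of all promoters. A match of letters is a description of the sequence and not evidence of binding.

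The value of a gene is its deposited array intensity on a linear scale, and differences were tested on the log2 scale with limma over all 14497 genes. A difference is given ± its standard error, n is 3 animals in each group, and a gene was called where the limma p adjusted over all genes was under 0.05. Rapamycin animal 3 stood apart. Its 3 arrays had an interquartile range of log2 intensity of 1.57 to 1.71, against 1.98 to 2.80 on the other 11 arrays. They entered as 1 animal, averaged on the log2 scale. Leaving it out added calls among the members, which are given with each gene below. The differences of placebo foci and AAF/PH liver from normal liver are the same in both fits. Only the shared estimate of spread and the adjustment over all genes change. Aldoa in placebo foci stayed at 0.96 while its limma adjusted p went from 0.0847 to 0.00366. The calls gained there are thus not larger differences of the members.

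Pklr and Fbp1 fell in both kinds of foci and in AAF/PH liver against normal liver, and Hk1 rose in placebo foci and AAF/PH liver. Hk2, Slc2a2 and the probe set taken for Pkm were called against normal liver in no group. In AAF/PH liver 5 of the 9 members were called, 2 higher and 3 lower, against 20% of all genes called, 7.54% higher and 12.5% lower. In placebo foci 5 were called against normal liver, 1 higher and 4 lower, where 8.22% of all genes were called, 2.84% higher and 5.38% lower. In rapamycin foci 2 were called, both lower, against 6.53% of all genes called, 1.6% higher and 4.93% lower. The animals did not overlap between the groups for 4 members in rapamycin foci (29.7% of all genes), 7 in placebo foci (30.5%) and 6 in AAF/PH liver (49.6%). The median log2 difference of the 9 was -0.43 in rapamycin foci, -0.72 in placebo foci and 0.47 in AAF/PH liver, where that of all genes was 0.07, 0.04 and 0.12. The median in rapamycin foci was -0.09 without rapamycin animal 3. Because the members moved in both directions, each median is the value of a single gene that was not called. That gene was Pck1 in rapamycin foci, in both fits, and in AAF/PH liver, and Slc2a2 in placebo foci. The medians thus do not describe a shift of the whole set. These 3 comparisons share the normal livers, so they are not independent of each other.

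These genes are often grouped as a switch of glycolytic isoforms, and the label held for part of them. Pklr fell in every group, Hk1 rose in placebo foci and AAF/PH liver and Aldoa in AAF/PH liver. Pkm was called on 1 of its 2 probe sets and in AAF/PH liver alone against normal liver, Hk2 was called against normal liver in no group, and Ldha fell in placebo foci and, on 1 of its 2 probe sets, in AAF/PH liver.

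**Figure D1:**
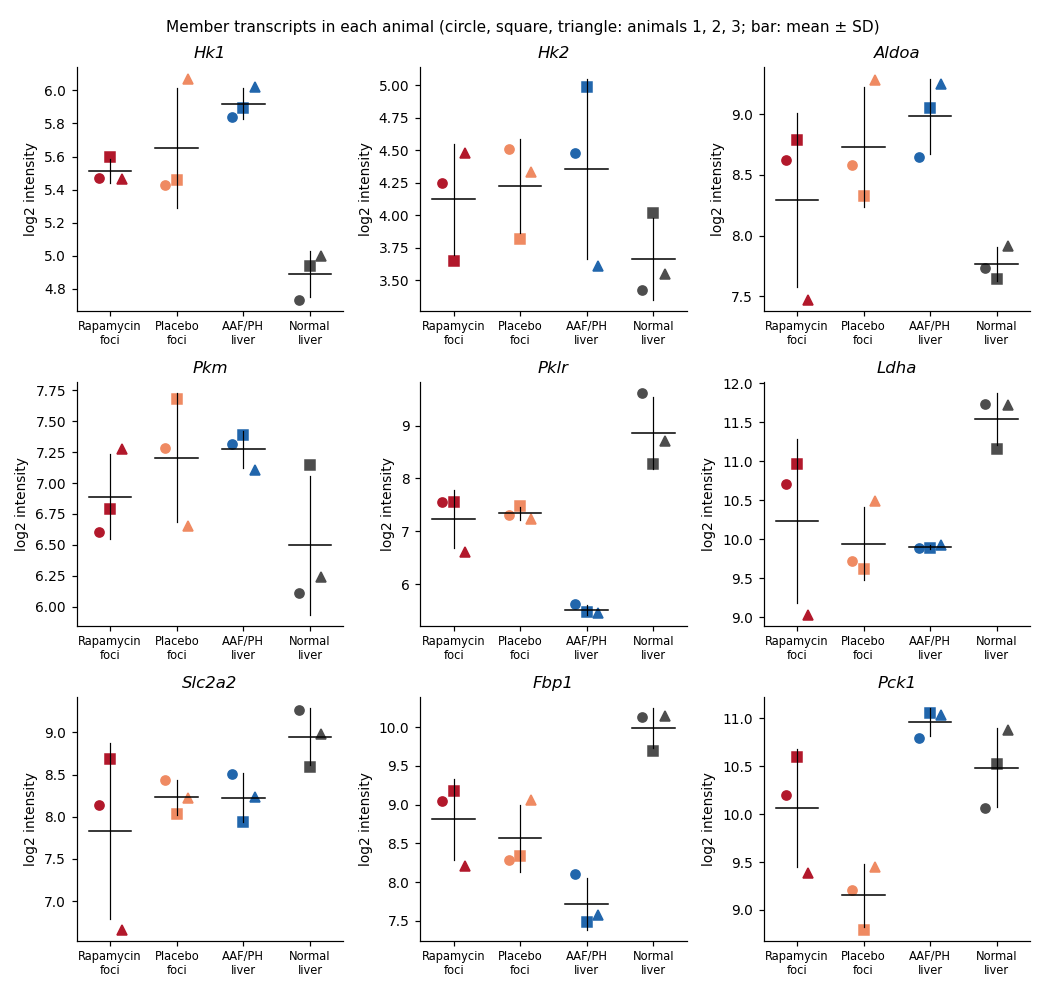
Log2 intensity (vertical axis) of each member in each animal, by group (horizontal axis: rapamycin foci, placebo foci, AAF/PH liver, normal liver). Points are single animals, the horizontal bar is the mean of 3 animals and the vertical bar is ± 1 SD. Pklr stood near 45.8 in linear units in AAF/PH liver against 465 in normal liver (geometric means), and rapamycin animal 3, the triangle in the left column, was lowest of its group in Aldoa, Hk1, Pklr, Ldha, Slc2a2, Fbp1 and Pck1.

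Pyruvate kinase makes the last step of glycolysis. Pklr had an intensity of 188, 187 and 97.3 in the rapamycin foci and 158, 178 and 150 in the placebo foci. It had 49.4, 44.5 and 43.7 in the AAF/PH livers, against 779, 309 and 418 in the normal livers. No animal of any other group reached the lowest normal liver, and the AAF/PH livers lay below every focus. Pklr fell by 3.35 ± 0.30 on the log2 scale in AAF/PH liver (limma adjusted p = 4.62e-06), which is 10.2-fold. The log2 difference was -1.63 ± 0.30 in rapamycin foci (limma adjusted p = 0.00725) and -1.52 ± 0.30 in placebo foci (limma adjusted p = 0.0057), or 3.09-fold and 2.88-fold. Leaving out rapamycin animal 3, Pklr in rapamycin foci fell by 1.31 (limma adjusted p = 0.00414), and with only the rapamycin and normal animals in the fit its adjusted p was 0.0766. Pklr also encodes the pyruvate kinase of red cells. The summed intensity of 6 erythroid markers was 495 to 618 in rapamycin foci, 520 to 597 in placebo foci and 414 to 502 in AAF/PH liver, against 1025 to 1569 in normal liver, with no overlap, and 2, 2 and 3 of the 6 fell. Over all genes 4.93%, 5.38% and 12.5% were called lower in these groups. The part of red cells in the fall of Pklr was not tested.

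Pkm, the gene of the M1 and M2 forms, was covered by 2 probe sets that did not give the same picture. The probe set taken, 10789275, read 97.2, 111 and 155 in rapamycin foci, 156, 205 and 101 in placebo foci and 160, 168 and 138 in AAF/PH livers, against 69, 141 and 75.8 in normal livers. Normal liver animal 2 lay among the other groups, so that no group stood clear of it. The log2 differences from normal liver were 0.39 ± 0.30 in rapamycin foci, 0.71 ± 0.30 in placebo foci and 0.77 ± 0.30 in AAF/PH liver, and none was called (limma adjusted p = 0.377, 0.189 and 0.0787). Without normal liver animal 2 those in placebo foci and AAF/PH liver were 1.03 and 1.10, and both were called (limma adjusted p = 0.0428 and 0.0175). That of AAF/PH liver was also called without rapamycin animal 3 (limma adjusted p = 0.0253).

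On the other probe set of Pkm, 10910547, the readings were 92.9, 78.9 and 96.9 in rapamycin foci and 66.7, 66.8 and 109 in placebo foci. They were 124, 224 and 183 in AAF/PH livers, against 55.2, 58.0 and 66.0 in normal livers. Here the AAF/PH livers stood above every other animal. By this probe set Pkm rose by 1.53 in AAF/PH liver against normal liver (limma adjusted p = 0.000438). It was lower in rapamycin foci than in AAF/PH liver by a log2 difference of -0.95 (limma adjusted p = 0.0377) and in placebo foci by -1.13 (limma adjusted p = 0.0136). Against normal liver it was 0.58 higher in rapamycin foci and 0.40 in placebo foci, which was not called (limma adjusted p = 0.146 and 0.380).

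The arrays themselves bear on which probe set to read. Of the 20 probe sets numbered nearest to 10910547, 20 belong to genes of chromosome 8, where Pkm lies, while of those nearest to 10789275 all 20 belong to genes of chromosome 16. A pair of arrays of rapamycin animal 3 used the same RNA, and on them 10789275 read 90.6 and 195, a 2.15-fold gap. Of all genes 99.8% differed less between these arrays, and 10910547 read 100.2 and 98.9. This comparison of probe sets was made after their values had been seen.

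**Figure D2:**
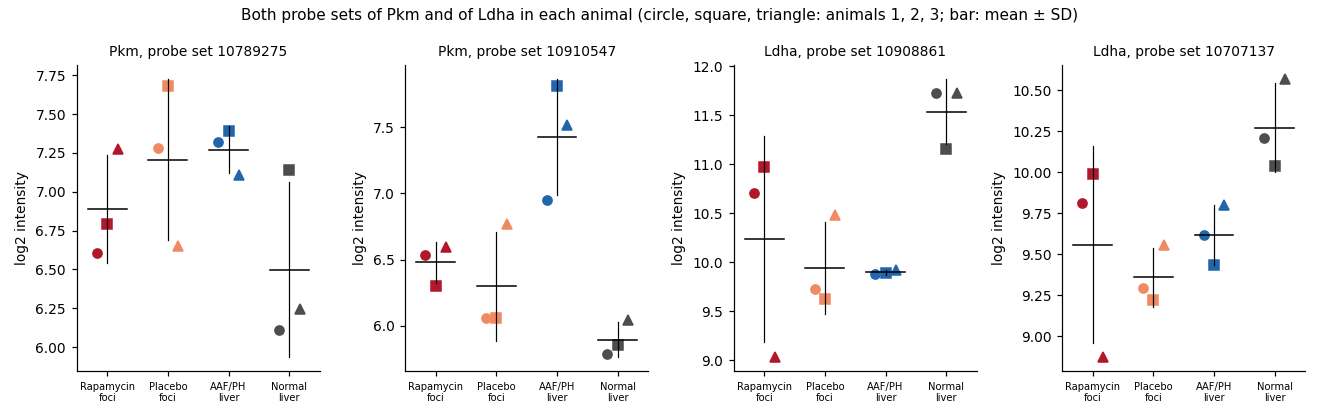
Log2 intensity (vertical axis) on both probe sets of Pkm and of Ldha in each animal, by group (horizontal axis). Points are animals, the horizontal bar is the mean and the vertical bar ± 1 SD of 3 animals. AAF/PH liver stands above all other animals on probe set 10910547 of Pkm, with a geometric mean of 172 against 59.6 in normal liver, and not on 10789275.

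A ratio of transcripts within an array is unaffected by the array's overall scale. The log2 ratio of Pkm over Pklr was higher than in normal liver by 2.02 in rapamycin foci, 2.23 in placebo foci and 4.12 in AAF/PH liver with the probe set taken, and by 2.21, 1.93 and 4.87 with the other. Its SD over 3 animals was 0.89 in rapamycin foci, 0.40 in placebo foci, 0.14 in AAF/PH liver and 1.19 in normal liver with the probe set taken. The animals of each of these groups did not overlap with the normal livers, and the exact 2-sided permutation test gave p = 0.1, the smallest that 3 animals against 3 allow. Over the 30 such tests made, for 5 transcript ratios in 6 comparisons, the adjusted p was 0.158, so none can pass a threshold of 0.05. The 4.12 in AAF/PH liver is made of the log2 difference of 0.77 of Pkm, which was not called, and that of -3.35 of Pklr.

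**Figure D3:**
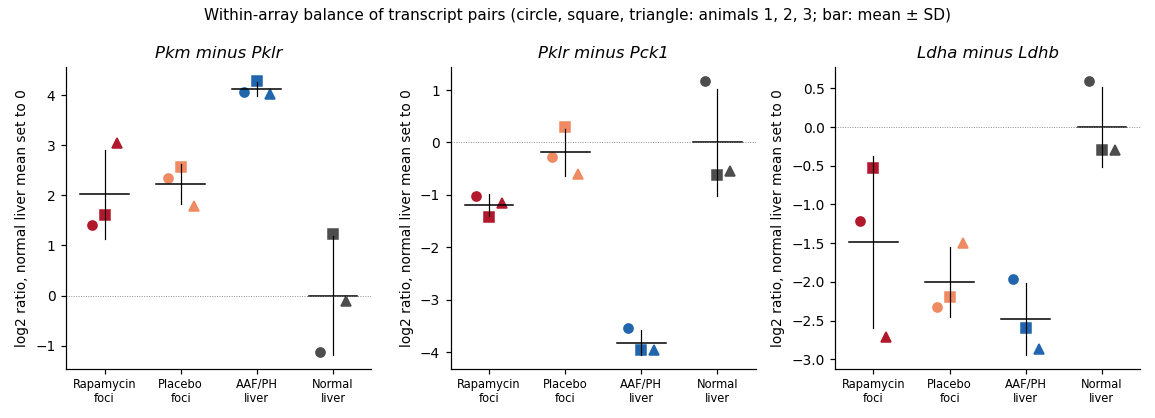
Log2 ratio of 2 transcripts within an animal (vertical axis, with the mean of normal liver set to 0), by group (horizontal axis), for Pkm over Pklr, Pklr over Pck1 and Ldha over Ldhb. Points are animals, the horizontal bar is the mean and the vertical bar ± 1 SD of 3 animals. Pkm over Pklr is highest in AAF/PH liver, 4.12 above normal liver, and Pklr over Pck1 is lowest there.

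Hexokinases trap glucose in the cell as glucose 6-phosphate, and aldolase A, from Aldoa, splits fructose 1,6-bisphosphate. Hk1 read 44.4, 48.4 and 44.2 in rapamycin foci, 43.1, 44.0 and 67.3 in placebo foci and 57.4, 59.5 and 65.0 in AAF/PH livers, against 26.6, 30.6 and 32 in normal livers. All 9 animals of those groups lay above all normal livers. Hk1 rose by 1.03 ± 0.19 in AAF/PH liver (limma adjusted p = 0.00143) and by 0.76 ± 0.19 in placebo foci (limma adjusted p = 0.0196), or 2.04-fold and 1.70-fold. In rapamycin foci its log2 difference was 0.62 ± 0.19, which missed the threshold (limma adjusted p = 0.062) and passed it without placebo animal 3 (limma adjusted p = 0.0333). The call in placebo foci was lost without normal liver animal 1 (0.69, limma adjusted p = 0.11), normal liver animal 3 (0.82, limma adjusted p = 0.0518) or placebo animal 3 (0.56, limma adjusted p = 0.0763), and with arrays centred on their median (0.66, limma adjusted p = 0.0701). The probe sets numbered nearest to that of Hk1 belong to genes of scattered chromosomes, with 0 of 20 on its own chromosome 20.

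Hk2, the hexokinase most often induced in liver tumours, was dim. It read 19.0, 12.5 and 22.3 in rapamycin foci, 22.9, 14.1 and 20.2 in placebo foci and 22.3, 31.7 and 12.2 in AAF/PH livers, against 10.7, 16.2 and 11.7 in normal livers. The groups overlapped, and the gene stood at the 32.4th percentile of brightness of all genes, where arrays resolve differences poorly. Its log2 differences from normal liver were 0.46, 0.56 and 0.69 in rapamycin foci, placebo foci and AAF/PH liver, each ± 0.32, and none was called (limma adjusted p = 0.343, 0.359 and 0.138). Without AAF/PH animal 3 that of AAF/PH liver was 1.07 and was called (limma adjusted p = 0.0284).

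Aldoa read 394, 443 and 177 in rapamycin foci, 383, 321 and 623 in placebo foci and 400, 532 and 610 in AAF/PH livers, against 213, 200 and 242 in normal livers. All placebo foci and AAF/PH livers lay above the normal livers, and rapamycin animal 3 lay below them. Aldoa rose by 1.22 ± 0.32 in AAF/PH liver (limma adjusted p = 0.0147), or 2.33-fold. In placebo foci its log2 difference was 0.96 ± 0.32 (limma adjusted p = 0.0847) and in rapamycin foci 0.53 ± 0.32 (limma adjusted p = 0.284). Both were called without rapamycin animal 3, at 0.96 in placebo foci (limma adjusted p = 0.00366) and 0.94 in rapamycin foci (limma adjusted p = 0.0224). The call in AAF/PH liver was lost without normal liver animal 1 (1.20, limma adjusted p = 0.057), AAF/PH animal 2 (1.18, limma adjusted p = 0.0554) or AAF/PH animal 3 (1.08, limma adjusted p = 0.06), and under median centring (1.03, limma adjusted p = 0.0741).

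Lactate dehydrogenase A, from Ldha, turns pyruvate into lactate and is usually raised in glycolytic tumours. Here it was lower than in normal liver. Its probe set 10908861 read 1673, 2005 and 523 in rapamycin foci, 845, 787 and 1433 in placebo foci and 944, 947 and 973 in AAF/PH livers, against 3403, 2282 and 3392 in normal livers. Every animal of those groups lay below every normal liver. Ldha fell at log2 differences of -1.64 ± 0.39 in AAF/PH liver (limma adjusted p = 0.00877) and -1.60 ± 0.39 in placebo foci (limma adjusted p = 0.0195). In rapamycin foci the log2 difference was -1.30 ± 0.39 (limma adjusted p = 0.0616). Without rapamycin animal 3 it was -0.70 (limma adjusted p = 0.0962), and without rapamycin animal 1 or 2 it was -1.54 or -1.67 and was called (limma adjusted p = 0.0499 and 0.0166). In placebo foci the call was lost without normal liver animal 1, normal liver animal 3, placebo animal 1 or placebo animal 2, at log2 differences of -1.50, -1.50, -1.49 and -1.43 (limma adjusted p = 0.0968, 0.0893, 0.0939 and 0.0924).

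The other probe set of Ldha, 10707137, gave smaller differences in the same direction. It read 899, 1016 and 469 in rapamycin foci, 628, 597 and 754 in placebo foci and 787, 692 and 892 in AAF/PH livers, against 1184, 1051 and 1518 in normal livers. Ldha by this probe set fell by 0.91 in placebo foci (limma adjusted p = 0.0408), and its log2 differences of -0.71 in rapamycin foci and -0.65 in AAF/PH liver were not called (limma adjusted p = 0.107 and 0.0868). All 20 probe sets numbered nearest to it belong to genes of chromosome 1, where Ldha lies, while 19 of the 20 nearest to 10908861 belong to genes of chromosome 8. Ldhb, the gene of the other subunit, read 24.5, 18.3 and 21.6 in rapamycin foci, 26.7, 22.7 and 25.4 in placebo foci and 23.2, 36.2 and 44.9 in AAF/PH livers, against 14.2, 17.6 and 26.4 in normal livers. It rose by 0.84 ± 0.26 in AAF/PH liver (limma adjusted p = 0.0339), although its lowest AAF/PH liver lay below the highest normal liver. The log2 ratio of Ldha over Ldhb was lower than in normal liver by a difference of -1.48 in rapamycin foci, -2.00 in placebo foci and -2.48 in AAF/PH liver, with no overlap (exact permutation p = 0.1 each, 0.158 adjusted over the 30 tests). With probe set 10707137 the differences were -0.90, -1.32 and -1.49, also with no overlap (exact permutation p = 0.1 each).

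Fbp1 reverses the phosphofructokinase step and is a known brake on glycolysis in liver tumours. It read 529, 577 and 297 in rapamycin foci, 313, 323 and 535 in placebo foci and 275, 178 and 191 in AAF/PH livers, against 1118, 826 and 1126 in normal livers. Every animal of those groups lay below every normal liver. Fbp1 fell at log2 differences of -2.26 ± 0.28 in AAF/PH liver (limma adjusted p = 6.79e-05), -1.42 ± 0.28 in placebo foci (limma adjusted p = 0.00531) and -1.17 ± 0.28 in rapamycin foci (limma adjusted p = 0.0242). These are 4.80-fold, 2.68-fold and 2.26-fold. In rapamycin foci the call was lost without normal liver animal 1 (-1.10, limma adjusted p = 0.125) or 3 (-1.10, limma adjusted p = 0.113), with only the rapamycin and normal animals in the fit (limma adjusted p = 0.0842), and with the replicate number as a block (limma adjusted p = 0.0525). It was kept without rapamycin animal 3 (-0.87, limma adjusted p = 0.0349). The log2 ratio of Pkm over Fbp1 was 1.57, 2.13 and 3.04 higher in rapamycin foci, placebo foci and AAF/PH liver than in normal liver, with no overlap (exact permutation p = 0.1 each, 0.158 adjusted over the 30 tests).

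Pck1 commits carbon to gluconeogenesis and is regulated mainly through its transcription. It read 1174, 1546 and 669 in rapamycin foci, 591, 444 and 700 in placebo foci and 1776, 2123 and 2090 in AAF/PH livers, against 1066, 1470 and 1875 in normal livers. The placebo foci lay below every normal liver and every AAF/PH liver, while rapamycin animals 1 and 2 lay among the normal livers and animal 3 among the placebo foci. Pck1 fell by 1.33 ± 0.29 in placebo foci (limma adjusted p = 0.00883), or 2.52-fold. Its log2 difference from normal liver was -0.43 ± 0.29 in rapamycin foci and 0.47 ± 0.29 in AAF/PH liver, neither called (limma adjusted p = 0.328 and 0.249). That in rapamycin foci was -0.09 without rapamycin animal 3 and -0.69 without animal 2, and that in AAF/PH liver was 0.81 and called under quantile normalization (limma adjusted p = 0.0285). In AAF/PH liver, where Fbp1 fell, the 95% interval of the Pck1 difference was -0.14 to 1.09. The fall in placebo foci was just outside the threshold without normal liver animal 3 (-1.14, limma adjusted p = 0.0611) or placebo animal 2 (-1.16, limma adjusted p = 0.0541).

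GLUT2, from Slc2a2, carries glucose across the hepatocyte membrane in both directions. Slc2a2 read 283, 412 and 101 in rapamycin foci, 347, 262 and 298 in placebo foci and 365, 245 and 301 in AAF/PH livers, against 617, 386 and 503 in normal livers. The placebo foci and AAF/PH livers lay below all normal livers, and rapamycin animal 2 lay within the range of the normal livers. The log2 differences were -1.12 ± 0.38 in rapamycin foci, -0.72 ± 0.38 in placebo foci and -0.72 ± 0.38 in AAF/PH liver, none of them called (limma adjusted p = 0.0919, 0.316 and 0.19). Without rapamycin animal 3 those of placebo foci and AAF/PH liver were called at the same size (limma adjusted p = 0.0212 and 0.0117), and that of rapamycin foci was -0.53 and not called (limma adjusted p = 0.221). Without rapamycin animal 2 it was -1.54 and called (limma adjusted p = 0.0144). Slc2a1, the gene of GLUT1, was called in none of the 6 comparisons, with readings of 41.1 to 53.6 in rapamycin foci, 43.2 to 74.7 in placebo foci and 41.6 to 54.8 in AAF/PH liver, against 39.0 to 44.0 in normal liver. The log2 ratio of Slc2a1 over Slc2a2 was 1.30, 1.10 and 0.90 higher in rapamycin foci, placebo foci and AAF/PH liver than in normal liver, and the rapamycin foci overlapped the normal livers (exact permutation p = 0.2, 0.1 and 0.1).

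**Figure D4:**
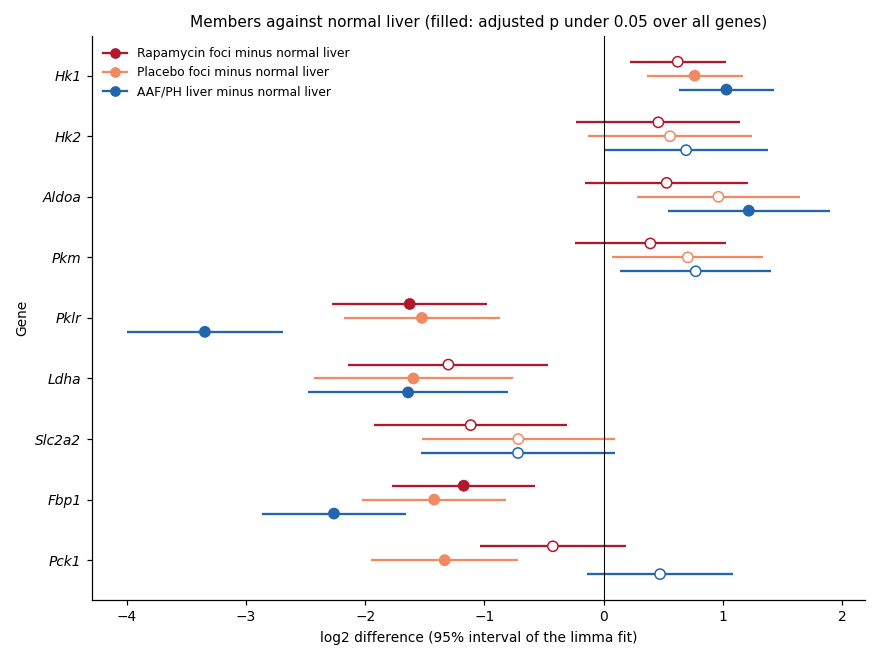
Log2 difference of each member (horizontal axis) from normal liver in rapamycin foci, placebo foci and AAF/PH liver, by gene (vertical axis). Points are estimates of the limma fit, bars are 95% intervals, and filled points are called at an adjusted p under 0.05 over all genes. Pklr and Fbp1 lie left of 0 in every group, with Pklr at -3.35 and Fbp1 at -2.26 in AAF/PH liver, and Pck1 is the member whose sign differs, at -1.33 in placebo foci and 0.47 in AAF/PH liver.

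Setting rapamycin foci against placebo foci asks what was left, on day 70, of a course of mTOR inhibition. Of the 9 members 0 were called, as of all genes (0%), and the groups overlapped for all 9 (6.04% of all genes did not overlap). At an unadjusted p under 0.05 limma passed 1 member, Pck1, and 3.33% of all genes. Pck1 was 0.91 ± 0.29 higher in rapamycin foci (1.88-fold, limma adjusted p = 0.985), with rapamycin animals 1 and 2 above all placebo foci and animal 3 below the highest. Without rapamycin animal 3 it was 1.24 higher and still not called (limma adjusted p = 0.0598). The 95% intervals of the other members' log2 differences were -0.75 to 0.55 for Pklr, -0.95 to 0.32 for Pkm, -0.54 to 0.26 for Hk1, -0.79 to 0.59 for Hk2 and -1.12 to 0.25 for Aldoa. They were -0.54 to 1.13 for Ldha, -0.35 to 0.85 for Fbp1 and -1.21 to 0.41 for Slc2a2. The intervals of Pkm and Ldha are those of the probe sets taken, on which Pkm differed by -0.31 and Ldha by 0.29. On their other probe sets the log2 differences were 0.18 for Pkm, of opposite sign, and 0.20 for Ldha, neither called (limma adjusted p = 0.985 each). G6pc1, whose enzyme releases free glucose as the last step of gluconeogenesis, read 814, 519 and 325 in rapamycin foci against 340, 370 and 265 in placebo foci, 0.68 ± 0.29 higher and not called (limma adjusted p = 0.985). The log2 ratio of Pklr over Pck1 was lower in rapamycin foci by a difference of -1.01, with no overlap between the animals (exact permutation p = 0.1, 0.158 adjusted over the 30 tests).

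Against AAF/PH liver, 2 members were called in rapamycin foci, both higher (4.01% of all genes called, 2.14% higher and 1.87% lower), and 2 in placebo foci, 1 in each direction (4.19% called, 2.62% higher and 1.57% lower). The animals did not overlap for 4 members in rapamycin foci (13.6% of all genes) and 3 in placebo foci (25.7%). Pklr was higher by 1.72 ± 0.30 in rapamycin foci (limma adjusted p = 0.00397) and by 1.82 ± 0.30 in placebo foci (limma adjusted p = 0.00261), or 3.29-fold and 3.53-fold. Pck1 was lower in placebo foci by a log2 difference of -1.81 ± 0.29 (limma adjusted p = 0.00178), which is 3.50-fold, and in rapamycin foci it differed by -0.90 ± 0.29 and was not called (limma adjusted p = 0.119). This difference was -1.17 and called without rapamycin animal 2 (limma adjusted p = 0.0404), called under quantile normalization (limma adjusted p = 0.0183), and -0.56 and not called without rapamycin animal 3 (limma adjusted p = 0.128). Fbp1 was higher in rapamycin foci by 1.09 ± 0.28 (limma adjusted p = 0.0432), a call that 16 of 25 alternative analyses did not make, at log2 differences of 0.91 to 1.39 over all of them. Among these were the fits without normal liver animal 1, 2 or 3, AAF/PH animal 2 or 3, placebo animal 1 or 2, or rapamycin animal 1 or 2, with adjusted p up to 0.181. Without rapamycin animal 3 Fbp1 was 1.39 higher (limma adjusted p = 0.000525), and Ldha was 0.94 higher and called (limma adjusted p = 0.0108). In placebo foci Fbp1 was 0.84 ± 0.28 higher and not called (limma adjusted p = 0.131), and it was called at the same size without rapamycin animal 3 (limma adjusted p = 0.0141).

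Several other gluconeogenic genes fell along with Fbp1, while few other glycolytic genes passed the test. Of 16 further gluconeogenic genes 3 fell in rapamycin foci, 4 in placebo foci and 8 in AAF/PH liver, and 0 rose, with median log2 differences of -0.74, -0.77 and -1.01. Over all genes 4.93%, 5.38% and 12.5% were called lower in these groups. Gk (glycerol kinase, which brings glycerol into the pathway) fell in all of them, at log2 differences of -1.52 ± 0.25, -2.06 ± 0.25 and -2.63 ± 0.25 (limma adjusted p = 0.00341, 0.000141 and 6.65e-06). Gpt, of alanine aminotransferase, fell at log2 differences of -1.17 in rapamycin foci, -1.11 in placebo foci and -2.56 in AAF/PH liver (limma adjusted p = 0.0122, 0.00971 and 6.5e-06). Pc, of pyruvate carboxylase, the first step from pyruvate, fell by 0.93 in rapamycin foci and fell by 2.39 in AAF/PH liver (limma adjusted p = 0.0379 and 1.43e-05). G6pc1 fell at log2 differences of -1.42 ± 0.29 in placebo foci and -1.14 ± 0.29 in AAF/PH liver (limma adjusted p = 0.00575 and 0.0113), and Slc37a4, of its glucose 6-phosphate transporter, at -0.95 and -1.77 there (limma adjusted p = 0.0271 and 0.00018). Gpt2, of the mitochondrial alanine aminotransferase, fell by 1.49 in AAF/PH liver (limma adjusted p = 0.00142). Against AAF/PH liver 4 of the 16 were higher and 2 lower in rapamycin foci, and 3 higher and 2 lower in placebo foci, with medians of 0.29 and 0.33. Over all genes 2.14% and 2.62% were called higher in these comparisons, and 1.87% and 1.57% lower. Pc was higher by 1.46 and 1.62 (limma adjusted p = 0.00293 and 0.00134) and Gpt by 1.39 and 1.44 (limma adjusted p = 0.00365 and 0.00274). Tat and Got1, of tyrosine and aspartate aminotransferases, were lower than in AAF/PH liver by log2 differences of -1.92 and -1.80 in rapamycin foci (limma adjusted p = 0.018 and 0.00595) and of -2.02 and -1.75 in placebo foci (limma adjusted p = 0.0124 and 0.00761). Pck1 had that direction and Pklr the opposite one.

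Of 17 further glycolytic genes 0 fell against normal liver, 1 rose in rapamycin foci, 1 in placebo foci and 2 in AAF/PH liver, with medians of 0.02, 0.13 and 0.14, near those of all genes. The shares of all genes called higher were 1.6%, 2.84% and 7.54%. Hk3, a hexokinase typical of leukocytes, rose by 0.92 ± 0.21 in rapamycin foci (limma adjusted p = 0.0189), at a low mean intensity of 24.8 against 13.1 in normal liver. Pfkp, the platelet form of phosphofructokinase, rose by 0.84 ± 0.23 in placebo foci and 1.19 ± 0.23 in AAF/PH liver (limma adjusted p = 0.0354 and 0.00235), also dim, at 20.3 and 25.8 against 11.3 in normal liver. In the comparison of rapamycin foci with placebo foci 0 of the 17 glycolytic and 0 of the 16 gluconeogenic genes were called.

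**Figure D5:**
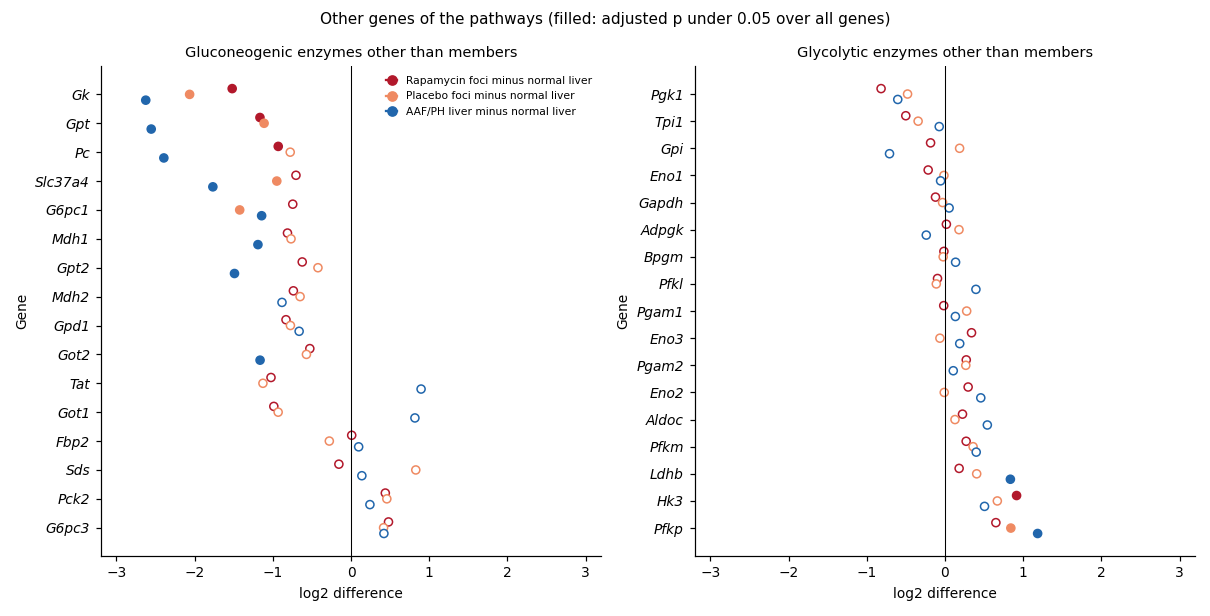
Log2 difference from normal liver (horizontal axis) of the 16 further gluconeogenic genes (left) and the 17 further glycolytic genes (right), by gene (vertical axis). Points are estimates for rapamycin foci, placebo foci and AAF/PH liver, filled where called at an adjusted p under 0.05 over all genes. All filled points on the left lie below 0, with Gk at -2.63 in AAF/PH liver, and all on the right lie above 0.

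Among 31 regulators of these enzymes 6 fell and 1 rose in rapamycin foci, 7 fell and 1 rose in placebo foci, and 13 fell and 2 rose in AAF/PH liver. Of all genes 4.93%, 5.38% and 12.5% were called lower there, and 1.6%, 2.84% and 7.54% higher. Gckr, of a regulatory protein of hepatic glucose phosphorylation, fell at log2 differences of -1.42 ± 0.22, -1.91 ± 0.22 and -3.40 ± 0.22 in these groups (limma adjusted p = 0.00241, 9.67e-05 and 3.29e-07). Mlxipl, of the glucose-responsive factor ChREBP that is known to drive Pklr, fell at log2 differences of -1.34 ± 0.26 in placebo foci and -2.28 ± 0.26 in AAF/PH liver (limma adjusted p = 0.00525 and 3.76e-05), and it was higher in rapamycin foci than in AAF/PH liver by 1.21 ± 0.26 (limma adjusted p = 0.0167). Pdk4, of a kinase that shuts pyruvate dehydrogenase in fasting, fell at log2 differences of -2.31 ± 0.34 in rapamycin foci and -2.88 ± 0.34 in placebo foci (limma adjusted p = 0.00167 and 0.000122). Onecut1, of the liver factor HNF6, fell at -1.89 and -1.72 there (limma adjusted p = 0.00115 and 0.000877), and Nr3c1, the glucocorticoid receptor gene, at -1.59 and -1.57 (limma adjusted p = 0.00807 and 0.00467). Cebpa, of a hepatocyte factor, fell by 1.39 in AAF/PH liver (limma adjusted p = 0.000218), and Pdk2, of another pyruvate dehydrogenase kinase, at a log2 difference of -1.92 (limma adjusted p = 6.93e-05).

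Of 13 further glucose and lactate transporters 1 fell in each kind of foci, and 3 fell and 2 rose in AAF/PH liver, where 6.53%, 8.22% and 20% of all genes were called in rapamycin foci, placebo foci and AAF/PH liver. Slc16a1, of the monocarboxylate carrier MCT1, fell at log2 differences of -1.04, -1.22 and -1.60 in rapamycin foci, placebo foci and AAF/PH liver (limma adjusted p = 0.0457, 0.0159 and 0.00135), and Slc16a3, of the lactate exporter MCT4, rose by 0.79 in AAF/PH liver (limma adjusted p = 0.0359). Of 16 glycogen genes 2 fell in rapamycin foci, 2 fell and 1 rose in placebo foci, and 6 fell and 1 rose in AAF/PH liver. Gys2, the liver glycogen synthase, fell at -1.10, -0.97 and -1.28 in these groups (limma adjusted p = 0.0302, 0.0443 and 0.00508), while Pygb, the brain form of glycogen phosphorylase, rose by 1.04 in placebo foci and 0.95 in AAF/PH liver (limma adjusted p = 0.00659 and 0.00606). Gbe1, the branching enzyme, fell by 2.88 ± 0.36 in AAF/PH liver (limma adjusted p = 7.04e-05) and in placebo foci was 2.92 ± 0.36 higher than there (limma adjusted p = 0.000232). Of 7 fructose and polyol genes 2 fell in rapamycin foci, 2 fell and 1 rose in placebo foci, and 4 fell in AAF/PH liver. Khk, of ketohexokinase, fell at -1.14, -1.11 and -2.06 in these groups (limma adjusted p = 0.0274, 0.0225 and 0.000138), and Akr1b1, of aldose reductase, rose by 1.22 in placebo foci (limma adjusted p = 0.00585).

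Of 9 pentose phosphate genes 0 were called in rapamycin foci, 1 rose in placebo foci and 1 fell in AAF/PH liver. Over all genes 6.53%, 8.22% and 20% were called in these groups, so this list stood near or below that share. Taldo1, of transaldolase, rose by 1.26 ± 0.35 in placebo foci (limma adjusted p = 0.0397). Of 14 HIF1 targets outside glycolysis 1 rose in rapamycin foci, 3 rose in placebo foci, and 3 rose and 3 fell in AAF/PH liver. The shares of all genes called higher were 1.6%, 2.84% and 7.54% in these groups, and 12.5% were called lower in AAF/PH liver. The median log2 differences of the 14 were -0.20, -0.05 and -0.05 in these groups. Egln3, a prolyl hydroxylase gene that HIF1 induces, rose by 1.25 ± 0.27, 2.09 ± 0.27 and 2.00 ± 0.27 in these groups (limma adjusted p = 0.014, 0.000213 and 0.000122). Vegfa, another target, fell by 1.10 in AAF/PH liver (limma adjusted p = 0.017). Of 7 genes of the mTORC1 glucose programme outside the members, Pfkp alone was called against normal liver, in placebo foci and AAF/PH liver, and 0 in rapamycin foci.

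The captured tissue carried hepatocyte RNA in every group. Summed over 12 hepatocyte markers, the intensity ranged over 23232 to 38651 in rapamycin foci, 26574 to 32797 in placebo foci and 23355 to 26810 in AAF/PH liver, against 41896 to 47463 in normal liver. Of these markers 1, 5 and 6 fell, with 0 rising. The shares of all genes called lower were 4.93%, 5.38% and 12.5% in these groups, and those called higher 1.6%, 2.84% and 7.54%. Markers of stellate cells and of biliary and oval cells were higher in AAF/PH liver. The sum over 12 stellate cell and matrix markers was 684 to 1071 in rapamycin foci, 931 to 1389 in placebo foci and 2293 to 5494 in AAF/PH liver, against 751 to 1039 in normal liver, with 0, 2 and 9 rising. That over 10 biliary and oval cell markers was 299 to 563, 530 to 797 and 1087 to 1684, against 228 to 280 in normal liver, with 2, 4 and 8 rising. Over 12 macrophage markers it was 764 to 1378, 1170 to 1835 and 1653 to 1785, against 1194 to 1566 in normal liver, with 4 falling in rapamycin foci, 2 falling in placebo foci, and 3 rising and 1 falling in AAF/PH liver. Over 10 lymphocyte markers it was 260 to 367, 229 to 275 and 277 to 319, against 202 to 239 in normal liver. Of these 1, 0 and 1 rose and 0 fell. Over 8 neutrophil markers it was 103 to 143, 104 to 114 and 125 to 252, against 92.5 to 130 in normal liver. Of these 0, 0 and 1 rose and 0 fell. Over 7 muscle and fat markers it was 177 to 248, 171 to 209 and 208 to 237, against 139 to 161 in normal liver. Of these 0, 1 and 2 rose and 0 fell. Over 7 endothelial markers it was 351 to 613, 481 to 659 and 499 to 772, against 730 to 743 in normal liver. Of these 1 fell in each group and 0 rose. No marker has a true zero on these arrays. Fewer cells of a type and less RNA per cell cannot be told apart in such bulk tissue, and the part of cell makeup in the members' differences was not tested. The summed intensity of 11 proliferation markers was 269 to 448 in rapamycin foci, 388 to 560 in placebo foci and 330 to 358 in AAF/PH liver, against 248 to 266 in normal liver.

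For each member the genes of most similar profile were sought among the 7221 genes of the brighter part of the array, by the root mean square difference of log2 values over the 12 animals after each gene was set to its own mean. Pkm and Ldha entered through the probe sets taken, 10789275 and 10908861. The genes named for them are those nearest to these probe sets, and the other probe sets were not searched. Nearest to Pklr was Pfkfb1, the liver form of the enzyme that makes and breaks down fructose 2,6-bisphosphate, at 0.26, where the spread of Pklr itself was 1.24. Nxpe4 and Aadat followed, at 0.28 and 0.30. Pfkfb1 fell at log2 differences of -1.60 ± 0.33 in rapamycin foci and -3.23 ± 0.33 in AAF/PH liver (limma adjusted p = 0.0118 and 1.27e-05). Nearest to Fbp1 were Rarres2, Abcg3 and Slco2b1, at 0.12, 0.15 and 0.16 for a spread of 0.87. Nearest to Ldha were Decr1, Adk and Cyp2d5, at 0.19, 0.20 and 0.22 for a spread of 0.83, and to Slc2a2 Pfdn5, Psmb4 and Cul3, at 0.17, 0.18 and 0.19 for a spread of 0.62. Nearest to Pck1 were Slc25a22, Eci1 and Mmp14, at 0.30, 0.37 and 0.38 for a spread of 0.75. Aldoa lay nearest to Slc3a2, Gnai2 and Clic1 (0.14, 0.20 and 0.21 of 0.60), Hk1 to Cyth4, Evl and Fbln5 (0.14, 0.15 and 0.15 of 0.41), Pkm to Nrm, Slc35g3 and Cd101 (0.18, 0.19 and 0.22 of 0.46) and Hk2 to Fcnb, Selplg and Hapln4 (0.21, 0.25 and 0.26 of 0.47).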

How the data were processed

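Per the labels' protocols, RNA from laser-captured, fixed liver (150 ng) was amplified, labelled with biotin and hybridised to 14 arrays of 12 animals, whose number limits the precision. The deposited table held 28826 probe sets as linear intensity values. Per the submitters' processing notes, Partek 6.6 and RMA (robust multi-array average) were used, and their order and settings are not stated there. RMA is known to compress differences of dim genes. The design had assumed log2 values, so log2 of the deposited intensity was taken here. Rapamycin animal 3 had 3 arrays, 1 of them from a second capture per the labels, and they were averaged. Of the probe sets 15209 had 1 gene symbol, 306 several and 13311 none. Where a gene had several (494 genes), the brightest was kept.

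A single limma 3.58.1 fit in R 4.3.3 (lmFit, eBayes, 2-sided) held the 4 group means with 8 residual and 6.38 prior degrees of freedom, tested on simulated data, and Benjamini-Hochberg adjustment ran over 14497 genes. Transcript ratios were compared by exact permutation with scipy 1.17.1. Named are the 9 members, the paired forms Ldhb and Slc2a1, up to 5 called genes of smallest p from each list (not all are described), and 3 genes of nearest profile per member. The members and lists were chosen with earlier results of these data known. Symbols came from the platform annotation, and 14472 genes matched RefSeq by Entrez ID. Alternatives were other normalizations, filters, arrays and fits, and leaving out each animal.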

Additional observations from a re-analysis of the deposited data

How the results depend on the processing

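Over 25 alternatives the members' log2 differences gave 1350 values, of which 1243 kept direction and side of the threshold, 37 lost a call, 40 gained one and 0 called values turned sign. A further 30, none called, changed sign. The members called in the analysis as reported were 2 in rapamycin foci, 5 in placebo foci and 5 in AAF/PH liver against normal liver, and 2 in rapamycin foci against AAF/PH liver. Array weights gave 9 for placebo foci and 8 for AAF/PH liver against normal liver. The count over all genes moved with the setting too, over the ranges given below. A change in the members' count is therefore not by itself a result about them. For rapamycin foci against normal liver, quantile normalization gave 5, with 910 of all genes called, and a fit of those 2 groups alone gave 0. For rapamycin foci against AAF/PH liver, quantile normalization gave 4, and median centring, a pseudocount of 16, all probe sets, the first array of rapamycin animal 3, an intensity trend with a robust prior, and a fit of those 2 groups alone each gave 1. With the replicate number as a block the counts were 1 for rapamycin foci against normal liver, 5 for placebo foci, 5 for AAF/PH liver, 0 for rapamycin against placebo foci, and 1 for rapamycin and 2 for placebo foci against AAF/PH liver. Deviations of same-numbered animals of different groups gave 18 correlations of -0.68 to 0.38, with a median of 0.0077 and 7 over 0.1. Pairs of different number gave 36 of -0.48 to 0.63, with a median of -0.0025 and 15 over 0.1. Same-numbered animals thus did not stand out, and no pairing was used in the analysis as reported. Deviations from means of 3 animals cannot decide whether same-numbered arrays shared a batch. Leaving out each animal gave 1 to 4 for rapamycin foci, 2 to 7 for placebo foci and 4 to 7 for AAF/PH liver against normal liver, and 1 to 3 for rapamycin and 2 to 3 for placebo foci against AAF/PH liver. The cause was not tested, except that fits of fewer animals have fewer degrees of freedom.

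Over all genes the count called ranged over 210 to 2051 in rapamycin foci (947 as reported), 606 to 6443 in placebo foci (1192) and 1552 to 7996 in AAF/PH liver (2900) against normal liver. It was 204 to 2058 in rapamycin foci (581) and 330 to 2011 in placebo foci (608) against AAF/PH liver, and 0 to 3 for rapamycin against placebo foci. Median centring moved the median of all genes to -0.10 in rapamycin foci and -0.08 in AAF/PH liver, and the share of calls that were higher to 10.0% and 20%, where 24.5% and 37.7% were higher as reported. A pseudocount of 16 moved it to 49.4% for placebo foci against AAF/PH liver, where 62.5% were higher as reported. Of 570 values of the transcript ratios 554 moved by under 1 SD between animals and 8 changed sign. Dim signals such as Hk2 limit what can be seen, and the use of the other probe set of Pkm and Ldha was chosen after seeing the data.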
